A study of Mus musculus with 5 samples.

Results

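The regions described here were listed as open chromatin from the hemogenic endothelium stage of blood development onwards and were not listed in the mesoderm and hemangioblast stages before it. They came from DNaseI-seq, in which the nuclease DNase I cuts accessible DNA and marks DNaseI hypersensitive sites (DHSs). The lists used come from 5 populations sorted from differentiating mouse embryonic stem (ES) cells of strain 129. The undifferentiated ES cell stage, which precedes them, was not analysed here, so whether the kept regions were open in it is not known. The 5 populations came from an ES cell line that carries a GFP reporter of brachyury (Bry). Mesoderm (MES) was sorted as Bry.GFP+ cells without FLK1 (FLK1-), and the hemangioblast stage (HB) as Bry.GFP+ cells with it (FLK1+). Hemogenic endothelium (HE) was taken as Bry.GFP+ and Tie2+/Ckit+/CD41-. CD41+ cells gave the progenitors of blood (HP), and CD11b+ cells grown from CD41+ cells by terminal differentiation gave the macrophages (MAC). The labels name no treatment, and the cells stand for a single line in culture. There was 1 list of sites per stage, so no replicate error can be given. The regions were chosen by their presence in the lists: each site was set to a 500 bp window around its middle, windows sharing 25% of their length or more were chained, and a region was kept if it held windows of HE, HP and MAC and none of MES or HB. This gave 1044 of 68846 merged regions, a share of 1.52% (95% Wilson interval 1.43 to 1.61). They are called kept regions below. Their number depended on the sites admitted, with 270 left when sites narrower than the median of their list were dropped and 503 when each list was cut to its widest sites at the length of the HP list. All intervals given cover counting error only, and no test was made, because a stage has a single list and regions of one list are not replicates.

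Hemogenic endothelium is a specialised endothelium of the embryo whose cells lose endothelial identity and bud off as blood cells. RUNX1 drives this transition, and GATA2, TAL1 and proteins of the ETS family act with it at shared regulatory elements. PU.1, itself an ETS protein encoded by Spi1, is the main regulator of the macrophage fate. AP-1 is a dimer of JUN and FOS family proteins that acts at the end of many signalling pathways.

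Several kept regions lay at these regulator genes. Sequences at Gata2 and Spi1 are shown first, with others near S1pr1, Dapp1 and Smim38. They were printed because the recognition sequences counted further on can be seen in them. Each sequence is 300 bp around the centre of the kept region, on the plus strand of GRCm38, from the RefSeq assembly, and capitals mark exact matches on either strand to the consensus of GATA factors (AGATAA), ETS (GGAAGT), RUNX (TGTGGT), the E-box of TAL1 (CAGATG), the E-box CAGCTG, AP-1 (TGANTCA) and CEBP (TTGCNNAA). The Gata2, Spi1 and S1pr1 sequences came from genes of the lists of blood regulators and endothelial genes described below, Smim38 is near one of the 10 widest kept regions, and Dapp1 is one of the genes with most kept regions. S1pr1, Smim38 and Dapp1 were picked after their values were seen.

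Gata2 chr6:88203153-88203452: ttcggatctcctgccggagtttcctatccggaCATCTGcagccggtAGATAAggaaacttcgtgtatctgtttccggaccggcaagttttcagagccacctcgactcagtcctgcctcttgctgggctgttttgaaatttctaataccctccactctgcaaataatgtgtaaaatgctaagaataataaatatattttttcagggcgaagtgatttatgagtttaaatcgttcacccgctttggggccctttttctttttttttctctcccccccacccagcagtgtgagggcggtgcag
Spi1 chr2:91082997-91083296: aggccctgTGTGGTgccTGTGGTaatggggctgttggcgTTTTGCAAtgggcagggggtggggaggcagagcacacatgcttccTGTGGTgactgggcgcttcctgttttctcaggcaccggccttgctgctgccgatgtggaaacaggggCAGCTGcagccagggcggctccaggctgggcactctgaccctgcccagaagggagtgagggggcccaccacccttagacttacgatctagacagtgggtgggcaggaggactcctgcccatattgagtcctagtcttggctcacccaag
S1pr1 chr3:115709054-115709353: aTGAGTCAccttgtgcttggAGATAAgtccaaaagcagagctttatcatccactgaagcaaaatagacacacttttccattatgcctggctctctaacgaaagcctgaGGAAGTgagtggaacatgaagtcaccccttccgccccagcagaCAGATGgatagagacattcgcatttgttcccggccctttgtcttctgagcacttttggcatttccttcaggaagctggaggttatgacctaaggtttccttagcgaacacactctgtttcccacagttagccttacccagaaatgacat
Dapp1 chr3:137957872-137958171: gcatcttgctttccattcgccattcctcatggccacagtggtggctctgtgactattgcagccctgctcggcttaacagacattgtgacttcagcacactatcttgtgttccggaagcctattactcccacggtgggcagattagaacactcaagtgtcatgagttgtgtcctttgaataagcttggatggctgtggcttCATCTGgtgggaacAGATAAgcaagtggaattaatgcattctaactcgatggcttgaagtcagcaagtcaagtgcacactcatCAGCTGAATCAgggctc
Smim38 chr7:145111493-145111792: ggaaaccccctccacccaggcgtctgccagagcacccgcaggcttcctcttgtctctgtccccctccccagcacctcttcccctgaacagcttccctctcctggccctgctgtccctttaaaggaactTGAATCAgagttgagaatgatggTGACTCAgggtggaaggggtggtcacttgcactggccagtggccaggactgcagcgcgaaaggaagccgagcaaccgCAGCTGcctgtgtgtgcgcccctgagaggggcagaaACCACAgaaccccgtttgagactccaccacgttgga

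In the Gata2 sequence the E-box CAGATG lay on the minus strand, printed as CATCTG, and AGATAA on the plus strand, with 8 bases between them. This arrangement is a known site of the GATA and TAL1 complex. The Gata2 region was intronic, 9.41 kb and 4.64 kb downstream of the annotated starts of the gene. The Dapp1 sequence, in an intron 23.5 kb downstream of the start, held the same E-box and GATA pair, also 8 bases apart. The Spi1 sequence held 3 RUNX consensus sequences, the first 2 separated by 3 bases. It lay 0.741 kb downstream of one annotated start and 13.5 kb upstream of the others, which placed it in the promoter class. A conserved upstream element that binds RUNX1 is known for this gene. The S1pr1 sequence, 5.85 kb downstream of the start and intergenic, carried AP-1 and GATA 12 bases apart, then ETS and an E-box. The Smim38 sequence, 96.5 kb downstream of the start and intergenic, held a pair of AP-1 sites 16 bases apart. The chosen Runx1 region, intronic and 24.4 kb from a start, held none of these 7 consensus sequences in its central 300 bp and is not shown. The chosen Tal1 region overlapped an annotated exon and is not shown either.

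The E-box and GATA pair was rare. With exactly 8 bases between the CATCTG strand of the E-box and AGATAA, it was in 4 of the 944 kept regions beyond 2 kb of a transcription start site (TSS), or 0.424% (interval 0.165 to 1.08), against 32 of 52345 such regions over all patterns (0.0611%, interval 0.0433 to 0.0863). Regions open in HE and HP only had it in 6 of 1377 (0.436%), and regions open in HE and MAC only in 0 of 2187 (interval up to 0.175%). The 4 kept regions were nearest to Gata2, Dapp1, Noxa1 and Ldlrad3. The spacing of 8 bases is that of the Gata2 and Dapp1 sequences shown, which are among the 4, so the contrast is a description only. With 7 to 9 bases the pair was in 5 kept regions (0.530%, interval 0.226 to 1.23), 11 regions open in HE and HP only (0.799%), 1 open in HE and MAC only and 62 of all regions (0.118%).

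The labels were checked against sites within 1 kb of the TSS of the sorting markers. T, which encodes brachyury, had such a site in MES and HB only, Tek (Tie2) in HE only and Itgam (CD11b) in MAC only. Kdr (FLK1) had one in all 5 lists and Kit in all but MAC. Itga2b, which encodes CD41, had a site in HE and HP, although HE cells were sorted as CD41-. The lists were unequal in length (17734 sites in HP to 37456 in MAC) and in median site width (600 bp in MAC to 1200 bp in HE). They carry no read counts, so the depth of sequencing was not used here, and a missing site says nothing of closed chromatin, only that the list has none there.

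Most regions that opened in HE were not kept. Of 16717 regions open in HE and in neither MES nor HB, called HE-opened regions below, 15.1% had an HP site (interval 14.6 to 15.7) and 20.6% a MAC site. Both were present in 6.25% (5.89 to 6.62). The presence of a site in HP and in MAC went together. Among HE-opened regions with an HP site, 41.3% also had a MAC site (39.4 to 43.3), against 16.9% of those without one (16.3 to 17.5). The gap was widest at promoters, with 48.8% (42.0 to 55.6) against 9.76% (8.57 to 11.1). In proximal regions it was 43.3% against 19.0% and in distal regions 39.1% against 17.6%. Promoter regions have their centre at most 2 kb from the TSS of a coding gene, proximal ones up to 20 kb away and distal ones farther. The kept regions made up 5.89% of all regions open in HP, 3.13% of those open in HE and 2.79% of those open in MAC.

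Few of them lay near the overlap limit of the rule. The smallest overlap in the chain of windows ranged from 130 to 497 bp with a median of 398 bp, and in 985 kept regions (94.3%) windows of all 3 stages met that minimum together. Just inside the limit, 9 kept regions had a smallest overlap under 30% of the window, with median site widths of 1500, 600 and 700 bp in HE, HP and MAC. Just outside it, 14 regions open in HE and HP had a MAC window that overlapped by 15% or more of its length, short of the limit, and 9 regions open in HE and MAC had such an HP window. The rule used the middles of sites, so a wide early site could still reach a kept region. A deposited MES or HB interval overlapped the intervals of 38 kept regions (3.64%, interval 2.66 to 4.96), and 982 had none within 1 kb of their deposited intervals.

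Kept regions lay mostly away from promoters. There were 100 promoter, 383 proximal and 561 distal regions, and the median distance to a TSS was 23.5 kb. That median was 24.4 kb for HE-opened regions and 16.1 kb over all regions. The promoter share was 9.58% (interval 7.94 to 11.5), against 24.0% over all regions (23.6 to 24.3) and 82.4% of the regions open in all 5 stages. It was also below the 13.9% of all HE-opened regions (13.4 to 14.4), of which HE-only regions had 16.2%, while HE and HP only had 7.09% (5.89 to 8.51) and HE and MAC only 8.65% (7.59 to 9.84), with intervals that overlapped that of the kept regions. The share depended on the width of the sites admitted, with 28.1% of the 270 regions left when sites narrower than the median of their list were dropped. By gene structure, 563 centres lay in introns (53.9%), 338 were intergenic (32.4%), 18 were in coding exons (1.72%) and the rest in exons outside coding sequence. Over all regions, 46.0% lay in introns, 34.3% were intergenic and 4.32% were in coding exons. The intron share was 55.3% in HE and HP only, 54.2% in HE and MAC only and 52.7% in HE only. CpG-rich regions numbered 27 (2.59%, interval 1.78 to 3.74), against 18.2% over all regions, and 18.1% of those 270. The CpG-rich share was close to this in HE and HP only, at 2.77% (2.05 to 3.73). It was 2.26% (1.73 to 2.93) in HE and MAC only. CpG-rich means a GC content of 0.5 or more and an observed to expected CpG ratio of 0.6 or more in the 500 bp at the centre. Of the CpG-rich HE-opened regions 2.41% were kept (1.66 to 3.48), against 6.52% of the others (6.14 to 6.92). Beyond 2 kb the median GC content was 49.6%, against 48.8% in regions open in HE and HP only, 48.6% in those open in HE and MAC only and 48.6% over all regions. Annotated repeats covered a median of 9.0% of the central 500 bp of kept regions beyond 2 kb and 9.6% over all regions.

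By chromosome, 97 kept regions each were on chromosomes 2 and 8. Chromosome 8 held 9.29% of them (interval 7.68 to 11.2), against 7.02% of the HE-opened regions. Chromosome X held 7 (0.671%, interval 0.325 to 1.38), against 1.82% of the HE-opened regions and 1.63% of all regions. These are 2 of 22 chromosomes looked at. Kept regions were rarely close to each other. Of 1024 neighbouring pairs, 13 were less than 5 kb and 113 less than 50 kb apart.

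The width of a site was the only measured property in the lists, and the rule did not use it. Kept regions had broad sites in HE, with a median of 1300 bp (quartiles 1000 and 1500 bp). Their HP and MAC sites both had a median of 700 bp. Against all regions of the same list beyond 2 kb, HE medians were 1200 bp in kept regions against 1000 bp, HP medians 700 against 600 bp and MAC medians 700 against 500 bp. With promoters included, the HE median was 1300 against 1200 bp, but the HP order turned, with 700 bp in kept regions against 900 bp in the list. Beyond 2 kb, regions open in all 5 stages had wider sites than kept regions in HE (1400 bp) and HP (900 bp). Regions open in HE only had a median HE width of 900 bp, those open in HE and MAC only 1000 bp and those open in HE and HP only 1200 bp. The HE site was wider than the HP site in 966 of the 1044 kept regions, and wider than the MAC site in 928. Across the whole table, HE sites were wider than HP sites in 95.6% of shared regions and wider than MAC sites in 94.1%, so this order was general to the lists. HP and MAC sites of kept regions were about equally often the wider one (464 and 456 regions), as were those of regions open in HP and MAC only (170 and 195 of 409). The HP site was wider in 70.5% of all regions shared by HP and MAC, most of which were open in all 5 stages (9067 of 11738, with the HP site wider in 75.2%). Across the 1044 kept regions the widths were weakly related between stages, with a Spearman coefficient of 0.343 between HE and HP, 0.209 between HE and MAC and 0.185 between HP and MAC. These are descriptions across regions, which share the caller and the width steps of 100 bp.

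**Figure D1:**
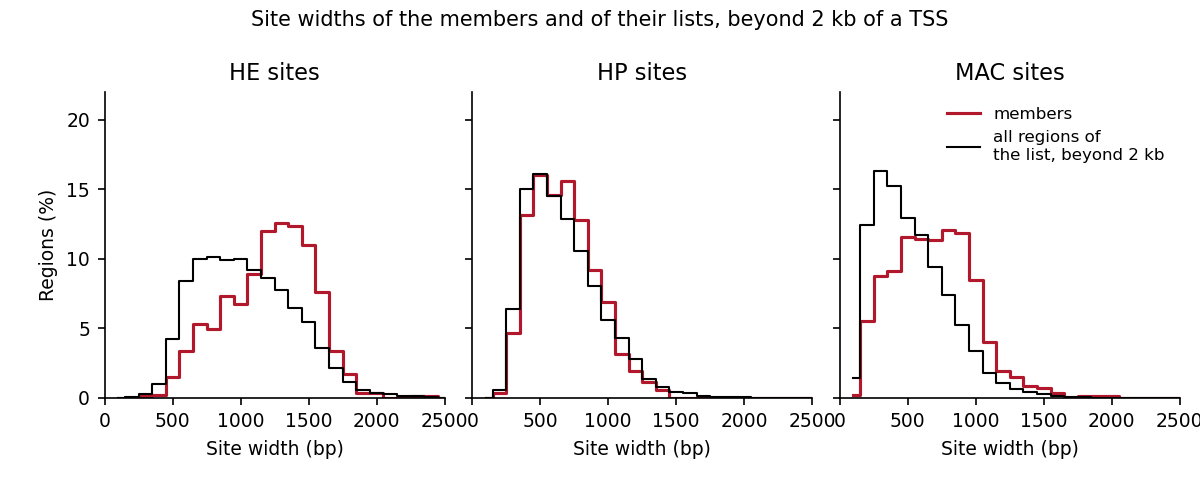
Distribution of site widths (bp, steps of 100 bp) in the HE, HP and MAC lists, as a percentage of regions beyond 2 kb of a TSS, for kept regions (members, red) and all regions of the same list (black). The kept regions lie to the right of their list most clearly in HE (median 1200 against 1000 bp) and MAC (700 against 500 bp).

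The share of HE-opened regions that was kept rose with the width of the HE site. Beyond 2 kb, it was 2.55% (interval 2.10 to 3.09) for HE sites of up to 700 bp, 3.71% at 800 to 900 bp and 5.27% at 1000 to 1100 bp. It reached 10.1% (8.96 to 11.4) at 1200 to 1300 bp, 15.4% (13.6 to 17.3) at 1400 to 1500 bp and 15.2% (12.9 to 17.7) from 1600 bp. The share with an HP site, whether or not MAC was open, rose more steeply, from 6.87% at up to 700 bp to 36.6% at 1400 to 1500 bp, and was 30.9% from 1600 bp. The share with a MAC site went from 17.1% to 29.5% and then 23.5% over the same steps.

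Of the 18 consensus sequences counted, AP-1 (TGANTCA) had the largest ratio of its share in kept regions to its share over all regions. It was present in the central 500 bp of 49.0% of the 944 kept regions beyond 2 kb (interval 45.9 to 52.2), against 27.2% of all 52345 regions (26.8 to 27.6). It was in 42.2% of regions open in HE and MAC only (40.1 to 44.2), 32.0% of those open in HE and HP only (29.6 to 34.5) and 24.7% of HE-only regions (23.8 to 25.5). The interval of the kept regions met none of these others. Written backwards, without complementing, the consensus was in 16.2% of kept regions, 1.17 times the share over all regions, against 1.80 times as written. Matches lay near the centre: there were 2.34 per kb within 50 bp of it and 0.519 per kb at 200 to 250 bp, against 1.03 and 0.383 over all regions. Among regions open in all 5 stages AP-1 was in 18.5%.

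**Figure D2:**
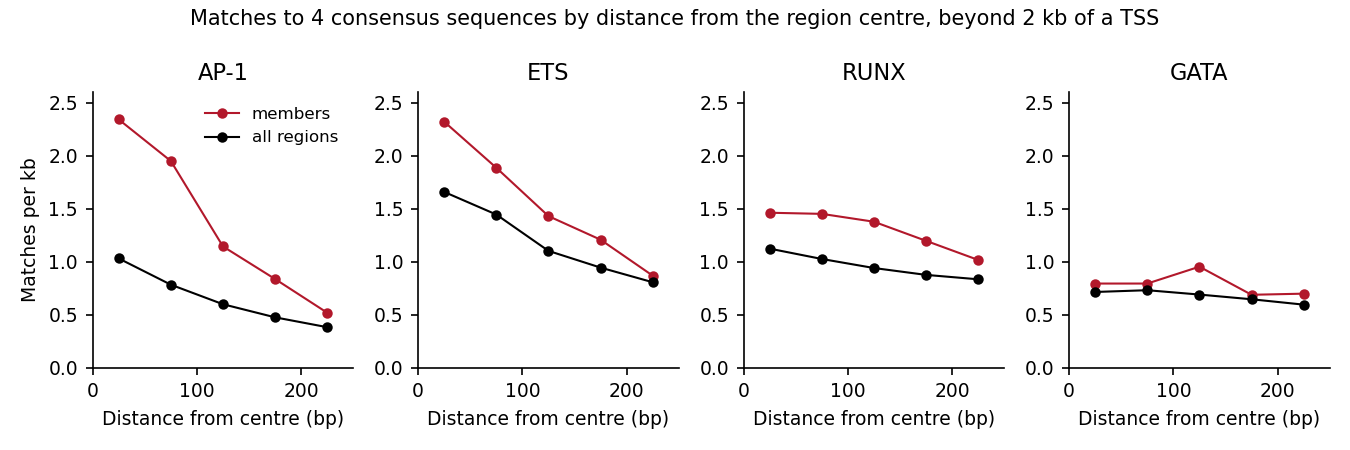
Matches per kb of sequence (vertical) by distance from the region centre in steps of 50 bp (horizontal) for AP-1, ETS, RUNX and GATA, in kept regions (members, red) and all regions (black) beyond 2 kb of a TSS. AP-1 falls from 2.34 per kb next to the centre to 0.519 at the edge in kept regions, while GATA changes little over the window.

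The other recognition sequences divided the patterns in different ways. RUNX (TGTGGT) was in 47.2% of kept regions (44.1 to 50.4) and in 47.1% of regions open in HE and HP only, against 38.5% in those open in HE and MAC only (36.5 to 40.6), 34.1% in HE only and 37.3% over all regions. The consensus of GATA factors, AGATAA, was in 32.7% of kept regions (29.8 to 35.8), between the 49.2% of HE and HP only (46.6 to 51.9) and the 25.2% of HE and MAC only (23.5 to 27.1), with 27.3% over all regions. Among HE-opened regions beyond 2 kb it was in 4948 of 14392, and the kept share was 6.24% with it and 6.72% without. The PU.1 consensus GAGGAAGT contains the ETS consensus GGAAGT. It was in 14.9% of kept regions (12.8 to 17.4) and in 15.0% of HE and MAC only, but in 6.61% of HE and HP only (5.41 to 8.04) and 9.47% over all regions. Without the sites narrower than the median of their list, the PU.1 share of kept regions was 1.01 times that over all regions, against 1.58 times with all sites. ETS as a whole had the same order, with 55.4% in kept regions, 58.1% in HE and MAC only, 41.2% in HE and HP only and 44.3% over all regions. In regions open in HP and MAC only, RUNX was in 53.8% (48.6 to 58.9) and PU.1 in 11.5% (8.63 to 15.3) of 355, with intervals that overlapped those of the kept regions, and AP-1 in 38.3% (33.4 to 43.5), below them.

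TEAD (CATTCC), the site of the transcription factors of the Hippo pathway, was in 30.4% of kept regions (27.6 to 33.4), against 41.0% of HE and HP only (38.4 to 43.6), 34.2% of HE only and 29.3% over all regions. SOX (ACAATG), which the endothelial factors SOX17 and SOX18 recognise, was in 24.9% of kept regions (22.2 to 27.8) and in 25.2% over all regions, against 33.6% of HE-only regions (32.7 to 34.6), 28.2% of HE and MAC only and 18.3% of HP and MAC only. CEBP (TTGCNNAA), recognised by the myeloid factors CEBPA and CEBPB, was in 22.5% of kept regions, 22.8% of HE and MAC only and 16.6% of HE and HP only, against 30.4% of MAC-only regions (29.8 to 31.1). The E-box CAGATG was in 41.3% of kept regions and 37.3% over all, and the E-box CAGCTG in 36.8% and 32.3%. MEIS (TGACAG) was in 43.6% and 38.6%. The sequences of PU.1 with IRF (GGAANNGAA), GFI1 (AAATCAC), KLF (CCACCC), FOX (TGTTTAC) and OCT (ATGCAAAT) had intervals in kept regions that held the share over all regions, as did TCF7L (ATCAAAG). T-box (AGGTGTGA), the family of brachyury, was in 1.38% of kept regions and 2.54% over all.

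**Figure D3:**
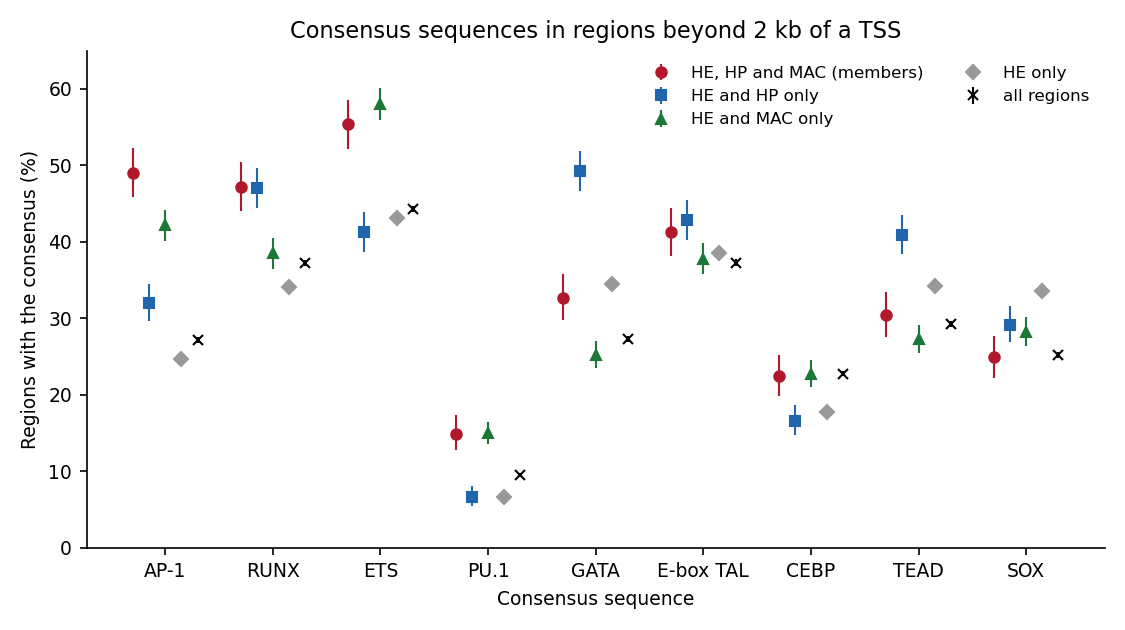
Percentage of regions beyond 2 kb of a TSS with each consensus sequence in their central 500 bp, by pattern, with 95% Wilson intervals as bars. Kept regions (members, red) have the highest AP-1 share of the 5 sets drawn (49.0%), lie with HE and HP only for RUNX (47.2% and 47.1%) and with HE and MAC only for PU.1 (14.9% and 15.0%).

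At least 1 of GATA, ETS, RUNX and AP-1 was in 885 of the 944 kept regions (93.8%), against 81.4% over all regions. The share was 91.3% in HE and HP only, 90.5% in HE and MAC only and 91.5% in HP and MAC only. RUNX with AP-1 was in 23.2% of kept regions (20.6 to 26.0), against 14.7% of HE and HP only, 15.8% of HE and MAC only and 10.2% over all regions. ETS with AP-1 was in 24.9% of kept regions and 22.8% of HE and MAC only, but 11.8% of HE and HP only. GATA with RUNX was in 15.8% of kept regions and in 22.1% of HE and HP only.

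Seen from the HE-opened regions beyond 2 kb, of which 6.56% were kept, the kept share was 10.9% with an AP-1 consensus (10.0 to 11.8) and 4.75% without (4.35 to 5.18). With PU.1 it was 11.6% (9.94 to 13.5) against 6.09%, with RUNX 8.40% (7.68 to 9.18) against 5.48%, and with ETS 7.89% against 5.42%. With SOX it was lower, 5.13% (4.53 to 5.81) against 7.23% (6.73 to 7.75). With GATA the kept share was 6.24% and without it 6.72%, with overlapping intervals. GATA went with more HP sites (19.9% against 14.1%) and with fewer MAC sites (17.4% against 24.0%). AP-1 went with more of both, 21.2% against 14.0% in HP and 32.5% against 17.2% in MAC. RUNX went mainly with HP (20.6% against 13.5%) and less with MAC (24.3% against 20.3%), and PU.1 mainly with MAC (38.6% against 20.2%) and less with HP (19.1% against 15.9%). HE-opened regions with AP-1, RUNX and PU.1 together were kept in 22 of 119 cases (18.5%, interval 12.5 to 26.4), those with none of the 3 in 211 of 5842 (3.61%, interval 3.16 to 4.12).

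The difference with AP-1 was also seen at matched width. Within every width step of the HE site the kept share was higher with AP-1: 4.25% against 1.85% at up to 700 bp, 8.25% against 3.95% at 1000 to 1100 bp, 18.0% against 6.67% at 1200 to 1300 bp and 28.6% (22.5 to 35.5) against 11.5% (9.27 to 14.1) from 1600 bp. Among the kept regions beyond 2 kb themselves, median HE width was 1300 bp with AP-1 and 1200 bp without. The means had the other order, 1205 bp with it and 1217 bp without. RUNX showed the same order in each of the 6 steps, but its intervals overlapped from 1400 bp (18.6% against 13.4%) and from 1600 bp (17.6% against 13.8%).

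**Figure D4:**
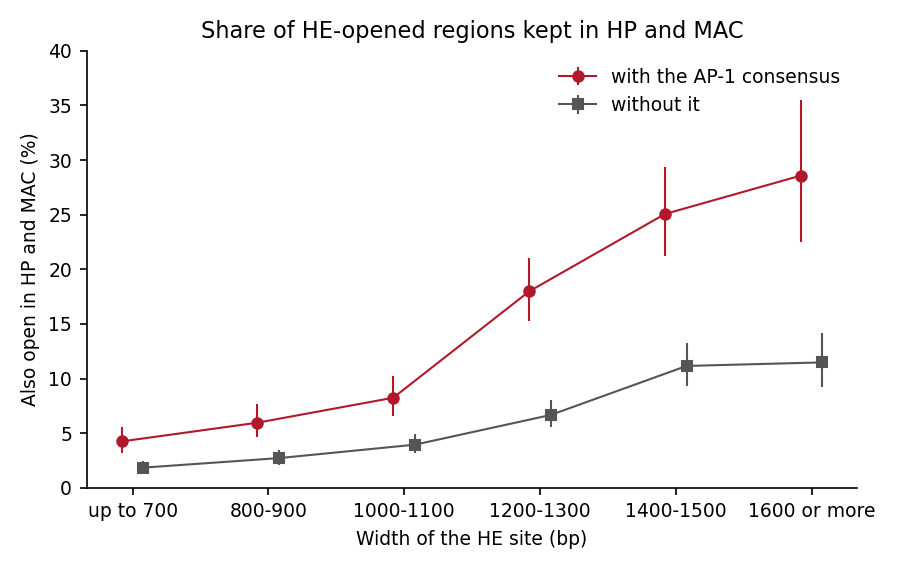
Percentage of HE-opened regions beyond 2 kb of a TSS that were also open in HP and MAC (vertical), by width of the HE site in bp (horizontal), with (red) and without (grey) an AP-1 consensus in the central 500 bp. Bars are 95% Wilson intervals, and the red points lie above the grey ones in all 6 width steps.

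The kept regions were assigned to the protein-coding gene with the nearest TSS within 100 kb, which gave 825 of 21000 genes (3.93%) for 915 regions. The other 129 regions lay farther away. With a limit of 20 kb there were 467 genes, and 26 listed genes had a kept region, against 45 within 100 kb. Most genes had a single kept region (755), 53 had 2, 14 had 3 and 3 had 4. Genes with a kept region had a median of 7 assigned regions of any pattern, against 2 over all genes, so a gene with many regions had more chances to hold a kept one. For each list below, the share of its assigned regions that were kept is therefore given beside the 1.52% over all regions. Of 324 listed symbols 323 were matched.

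Among 34 blood regulators 4 genes had kept regions, Gata2, Runx1, Spi1 and Tal1, with 6 of the 313 assigned regions (1.92%, interval 0.881 to 4.12). At Spi1 the upstream region (chr2:91082870-91083424) had widths of 1300, 800 and 700 bp in HE, HP and MAC, and the region at the other starts (chr2:91096420-91097019) had 600, 700 and 600 bp. A further 7 of the 15 regions drawn around Spi1 were open in MES or HB, and 3 were open in MAC only. Gata2, which maintains blood progenitors, had its intronic region (chr6:88203007-88203599) at 1700, 1200 and 600 bp in the same order. The regions 3.86 kb upstream and 4.81 kb downstream of the first start of Gata2 were open from MES. Runx1 had 2 intronic regions, 24.4 kb and 205 kb from its first start. The former (chr16:92801260-92802068) had widths of 1000, 1100 and 500 bp in HE, HP and MAC and the latter (chr16:92620610-92621307) 800, 600 and 700 bp.

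Tal1, which specifies blood from mesoderm, had a kept region 8.37 kb upstream of its TSS (chr4:115047657-115048464), with widths of 1200, 800 and 400 bp. A second kept region (chr4:115075107-115075964) lay 19.1 kb downstream of the Tal1 start, where a stem cell enhancer of Tal1 is known. It had widths of 1700, 600 and 1100 bp. This region was nearest to Pdzk1ip1 and so was not counted for Tal1, a limit of assignment by distance. Of the other regions near Tal1, those 3.64 kb upstream, 7.04 kb and 39.7 kb downstream already had sites in MES and HB.

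**Figure D5:**
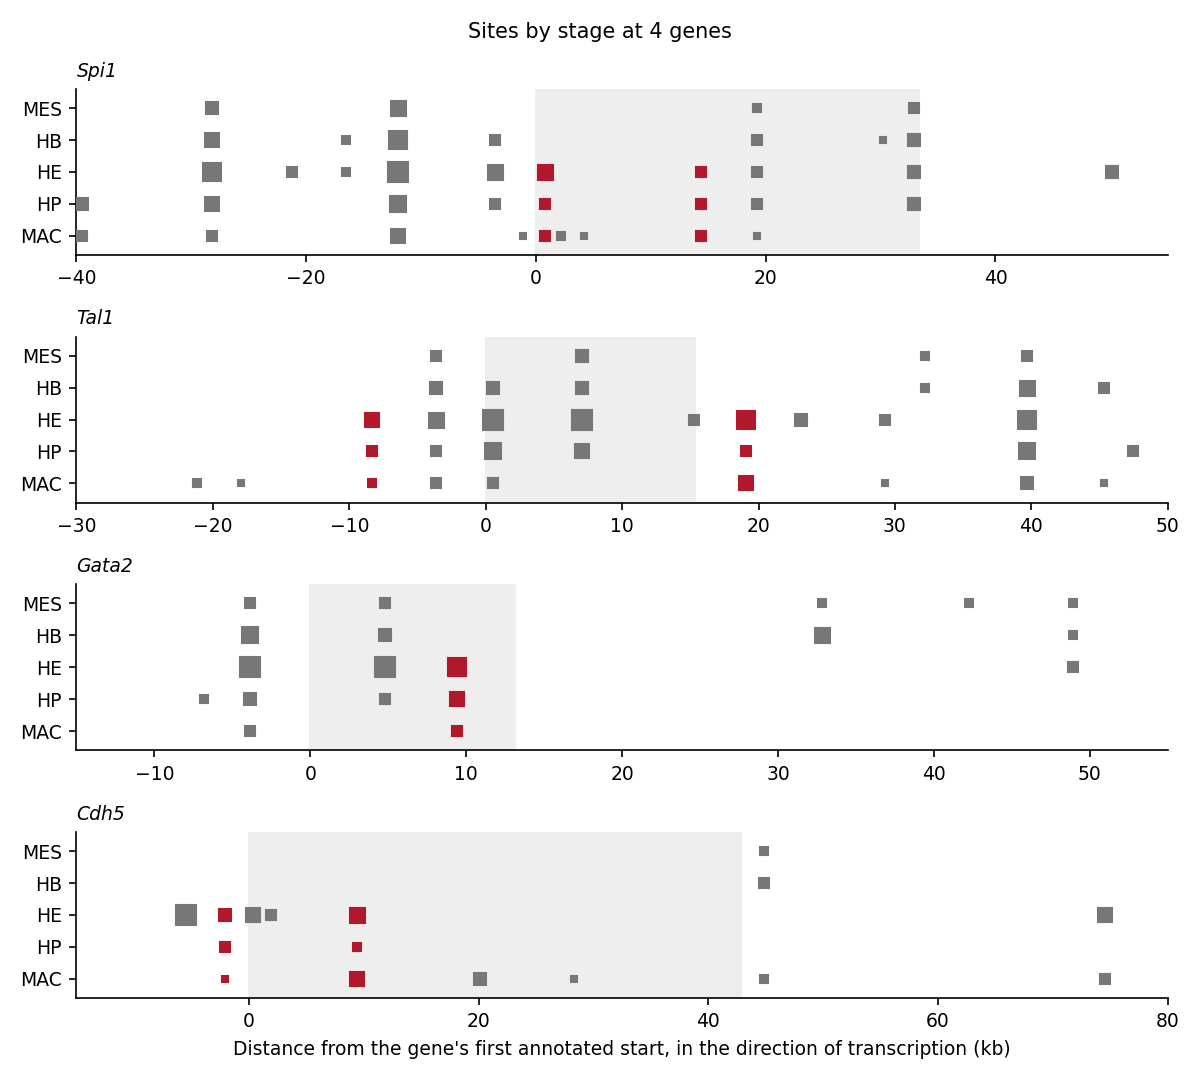
Sites listed at each stage (rows) around Spi1, Tal1, Gata2 and Cdh5, by distance in kb from the first annotated start of the gene in the direction of transcription. Squares grow with site width, red squares are kept regions, grey squares all other regions and the grey band is the gene. Red squares appear in the HE, HP and MAC rows, for example 8.37 kb upstream and 19.1 kb downstream of Tal1.

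The 50 genes of blood cell signalling and cytoskeleton had most kept regions of the 11 lists, at 12 genes with 16 regions, 4.26% of those assigned (interval 2.64 to 6.80). Vav3, a guanine nucleotide exchange factor, had 3: one at its promoter, with widths of 2400, 1100 and 600 bp in HE, HP and MAC, one 85.6 kb upstream and one 21.4 kb downstream. Its relative Vav1, which acts in all blood cells, had an intronic region 11.5 kb downstream (chr17:57290324-57290841) of 1700, 1400 and 1200 bp, among the widest of all. Rac2, a signalling GTPase of blood cells, had a promoter region of 900, 900 and 300 bp. Cd44, an adhesion receptor, and Plcg2, a phospholipase of immune receptors, had 2 regions each. Lcp2, an adaptor of immune receptor signalling, had an intronic region of 1500, 1000 and 700 bp, and Inpp5d, the phosphatase SHIP1, one of 1400, 900 and 700 bp. Plek, a substrate of protein kinase C in platelets and leukocytes, had one of 1400, 1100 and 700 bp. Arhgdib, Cd34, Dock8 and Grap2 had 1 each.

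Among 36 myeloid transcription factors 7 had kept regions (8 of 333 assigned regions, 2.40%, interval 1.22 to 4.67). They included the AP-1 genes Jun and Fosb, the interferon regulatory factors Irf1 and Irf2, and Klf6, Cebpb and Bhlhe41. The Fosb region, 6.65 kb upstream, had widths of 700, 1000 and 1000 bp and held an AP-1 consensus itself. Only the Fosb region lay within 20 kb of its TSS. Cytokine receptors and their signalling had 5 genes of 32 (Ifngr2, Il17ra, Jak1, Socs1 and Socs3) and 2.50% of 200 regions (interval 1.07 to 5.72). With the limit of 20 kb, 2 of these genes remained.

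Macrophage genes had 5 of 41 (Abca1, Adgre1, Ctsb, Mpeg1 and Tyrobp) and 2.22% of 225 regions (interval 0.953 to 5.10). With the limit of 20 kb, 3 of these genes remained. At Adgre1, which encodes the macrophage marker F4/80, the region 23.4 kb upstream had widths of 1600, 1200 and 1300 bp. Its promoter had a site in MAC only. Repeats covered 64.6% of the centre of this region, against a median of 9.0%, and a deposited early interval overlapped it. Mpeg1, which encodes perforin-2, and Tyrobp, the adaptor DAP12, also had promoter sites in MAC only. Their kept regions were 700, 800 and 800 bp wide and 1500, 400 and 1000 bp wide in HE, HP and MAC.

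Endothelial genes had 3 of 34 (Cdh5, Cldn5 and S1pr1), with 6 of 256 assigned regions (2.34%, interval 1.08 to 5.02). Cdh5, the cadherin of endothelial junctions, had kept regions 2.10 kb upstream, of 900, 800 and 300 bp, and 9.38 kb downstream, of 1300, 400 and 1100 bp. Its promoter had a site in HE only. S1pr1, the receptor for sphingosine 1-phosphate, had 3 regions, and its promoter had sites in all stages but MAC.

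The remaining lists had few. Megakaryocyte and platelet genes had 3 of 21 (F2rl2, Itgb3 and P2rx1), Hippo pathway genes 2 of 19 (Ccn2 and Amotl1), mesoderm and cardiac genes 2 of 24 (Hand1 and Lhx1), erythroid genes 1 of 20 (Hbb-y) and pluripotency genes 1 of 18 (Klf2). With the limit of 20 kb, the Hippo, mesoderm and pluripotency lists had no gene left, while the megakaryocyte and erythroid counts did not change. Within 100 kb, the kept share of the assigned regions was 3.85% for the megakaryocyte, 1.74% for the Hippo, 1.52% for the erythroid, 1.18% for the mesoderm and 0.990% for the pluripotency list, and of the 11 lists the interval of signalling and cytoskeleton alone missed the 1.52% over all regions. That list held 16 kept regions at 12 genes, so its regions were not independent. The 11 lists were chosen with earlier results of these data known, and no test was made. A deposited MES or HB interval overlapped the Hand1 and Amotl1 regions. Over all 55 regions at listed genes, HE widths ran from 600 to 2400 bp, HP widths from 200 to 1400 bp and MAC widths from 100 to 1800 bp.

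Over all genes, those with most kept regions were Dapp1, Cubn and Sipa1l2 with 4 each. Dapp1, an adaptor of B cell receptor and PI3K signalling, had 4 of its 7 assigned regions kept, from 0.101 to 28.6 kb of its start, and its promoter had sites in HE, HP and MAC only. Their HE sites were 600 to 1400 bp wide, their HP sites 700 to 1200 bp and their MAC sites 300 to 1200 bp. The 4 regions of Cubn, the receptor cubilin, lay 78.2 to 95.7 kb from a promoter that had no site in any list. Those of Sipa1l2 were 4 of 29 assigned regions. Of the 14 genes with 3 kept regions, Vav3, Irf2bpl, Stox2, Manba, Umps, S1pr1 and Hs1bp3 had the largest summed site widths.

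The 10 kept regions with the widest narrowest site were near Ftl1, Cd9, 1700001O22Rik, Ccn2, Pkdcc, Smim38, Bach2, Vav1, Map10 and Adgre1. In each, HE, HP and MAC sites were all at least 1200 bp. Ccn2, a target of the Hippo pathway, had widths of 1600, 1300 and 1800 bp at a region 39.8 kb downstream (chr10:24634831-24635710). Cd9, a tetraspanin, had 1900, 1400 and 1300 bp, and the region nearest to Bach2, a repressor of myeloid genes in lymphoid cells, 1900, 1200 and 1500 bp. The latter lay farther than 100 kb from the TSS and so was assigned to no gene. A deposited early interval overlapped 4 of the 10, those near Ftl1, 1700001O22Rik, Pkdcc and Adgre1.

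Promoters of the nearest genes had mostly been open before. Of the 732 genes with a kept region beyond 2 kb, 573 (78.3%, interval 75.1 to 81.1) had a site within 1 kb of a TSS in MES or HB, and 605 (82.7%) in HE. Over the 12276 genes with any region beyond 2 kb the shares were 70.5% (69.7 to 71.3) and 71.0% (70.2 to 71.8). A promoter open in HE but not before was found at 51 of the 732 genes (6.97%, interval 5.34 to 9.05), against 5.47% of the 12276. For genes of HE and HP only it was 7.70%, and for those of HE and MAC only 6.65%. Promoter sites in HE, HP and MAC only were listed at 82 genes in all, of which 56 had an assigned kept region. This pattern is the one the rule asks for, so the overlap is a description. They included Spi1, Vav3, Cd44, Rac2 and P2rx1 of the lists. Igf1, C3ar1, the receptor of complement C3a, and Ly96, a partner of the endotoxin receptor, were also among them and were named without a fixed rule. Fermt3, Itgb2 and Pf4 had this promoter pattern without an assigned kept region. Of the 100 promoter kept regions, 44 were at genes with a promoter site in MES or HB and 56 at genes with none. A deposited MES or HB interval overlapped 19 of these 100 regions, against 6 of the 383 proximal and 13 of the 561 distal ones.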

How the data were processed

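The deposited values are positions in base pairs (chromosome, start and end) of DHSs, with no score or read count beside them. According to the methods, the authors used CutAdapt for trimming, Bowtie for alignment to mm10, Picard for duplicates and DFilter for the calls (100 bp bins, unique reads only), while the submitters' processing notes name Bowtie and HOMER, with versions not given in the sources used here. The MAC sample is labelled as 2 replicates, whose list could not be split. Depth per sample is not in these files and was not used, and only widths could make a list stricter.

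Windows of 500 bp were merged where they shared 25% or more of their length and annotated with RefSeq on GRCm38.p6 (25999 curated mRNA start positions, 21000 genes), the assembly behind mm10. The merging and the counting of consensus sequences were tested on simulated data. Motifs were 18 exact consensus sequences, matched on either strand within the middle 500 bp of regions beyond 2 kb of a TSS, so weaker sites were missed. Where a region held several sites of a stage, the widest gave its width. Shares carry 95% Wilson intervals. Named genes were mainly those of 11 lists with an assigned region, the 10 genes with most kept regions (ties by summed width) and the 10 regions with the largest narrowest site. Noxa1 and Ldlrad3 were named for the E-box and GATA pair. Igf1, C3ar1 and Ly96 were named without a fixed rule from the genes with promoter sites in HE, HP and MAC only. Sequences were planned for blood regulators only. The members, lists and motifs were chosen with earlier results of these data known. Alternatives were other overlaps and windows, deposited intervals, stricter width filters, an early site within 1000 bp, other promoter limits, a central 200 bp, reversed consensus sequences and other gene distances. Python 3.11.15, pandas 2.3.3 and NumPy 2.4.6 were used.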

Additional observations from a re-analysis of the deposited data

How the results depend on the processing

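The number of kept regions was 994 to 1106 with other overlaps, 1000 bp windows, deposited intervals or no early interval within 1000 bp of the merged region (994, against 982 when the distance is taken from the wider deposited intervals). It depended on the width filter, with 270 regions when sites narrower than their list's median were dropped (the median filter), and 503 when each list was cut to its widest sites so that all were as long as that of HP. The promoter share was then 28.1% and 14.9%, and the CpG-rich share 18.1% and 5.57%. With no early interval within 1000 bp these were 7.85% and 1.61%. Promoters within 5 kb gave 16.8% and starts of all annotated genes 20.02%. Median widths with the median filter were 1500, 1000 and 800 bp in HE, HP and MAC by construction, and with the widest sites 1400 bp in HE and 900 bp in MAC.

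The ratio of the share in kept regions to that over all regions (main values 1.80 for AP-1, 1.27 for RUNX, 1.25 for ETS, 1.58 for PU.1 and 1.20 for GATA) stayed above 1 for these 5 in all 8 settings other than the reversed consensus. The ratio also stayed above 1 in these 8 settings for the E-box CAGATG, the E-box CAGCTG and MEIS. With the median filter it was 1.47 for AP-1, 1.14 for ETS and 1.01 for PU.1. With the widest sites it was 1.18 for RUNX, 1.35 for ETS and 1.02 for GATA. In the central 200 bp it was 2.12 for AP-1, 1.33 for ETS and 1.35 for PU.1. The reversed consensus gave 1.17 for AP-1, 1.01 for RUNX, 0.945 for ETS, 0.989 for PU.1 and 0.915 for GATA. Within 20 kb of a TSS, 467 genes had a kept region, 26 of them listed (45 within 100 kb). The cause of these shifts was not tested where the setting does not fix it. No paired analysis was possible because each stage was a single list.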
